A study of Mus musculus with 16 samples.

Results

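The genes described here are 10 mouse genes that the transcription factor p53 is known to switch on and that act in apoptosis or on the kinase Akt. They are Phlda3, Aen, Bax, Bbc3, Tnfrsf10b, Fas, Perp, Ei24, Pmaip1 and Eda2r. Their probes were found by matching the accession that each probe carries in the scanner files to a RefSeq gene symbol, and every probe of each gene was kept. They are 10 of 20660 genes with a matched probe on the array. Of 55681 probes on the array, 12 belonged to these 10 genes, with 2 probes each for Aen and Eda2r and 1 probe for each of the other genes. A probe entered the tests when its Cy5 signal stood well above background on 3 or more arrays of any 1 group. That left 10 of the 12 probes, of 9 genes, among 29712 tested probes, while neither Eda2r probe was bright enough to test.

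The samples were formalin-fixed, paraffin-embedded livers from female mice of the hybrid strain B6C3F1, bought at 5 to 6 weeks of age and kept at least 7 days before the study. Mice of the furan groups received furan by oral gavage in corn oil at 8 mg per kg body weight per day over 21 days. Furan is a volatile ring compound that hepatic P450 enzymes oxidise to a reactive dialdehyde. The control groups received the corn oil alone. Livers were taken 4 h after the last gavage and stayed in formalin for 3 weeks or for 18 h, and RNA came from 2 sections of 10 µm at 3 weeks and from 1 such section at 18 h, so that the number of sections changed with the time in formalin. The question of the design was how the furan response appears in fixed tissue at each time. The labels give 4 biological replicates per dose group. The 4 groups were furan at 3 weeks (samples 41, 42, 43 and 44), control at 3 weeks (arrays 2.1, 2.2, 4 and 6), furan at 18 h (samples 41, 42, 43 and 44) and control at 18 h (samples 2, 3, 4 and 6). The labels do not say whether a number shared by both times marks 1 animal. Arrays 2.1 and 2.2 share the number 2 and were averaged as 1 sample, which left 3 control samples at 3 weeks and 15 samples in all. Each of the 16 arrays carried liver RNA in Cy5 against a pool of all samples in Cy3. A value below is the log2 ratio of that liver sample over the pool, so it has no absolute level, and values of different probes are not compared.

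The protein p53 is held at a low level in unstressed cells by Mdm2, and it accumulates after DNA damage and other stress. It then binds response elements near its target genes. Some of those targets halt the cell cycle, and others, among them the genes described here, open the mitochondrial outer membrane, arm death receptors on the cell surface or hold back the survival kinase Akt. Hepatocytes are known for their sensitivity to the death receptor Fas.

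A p53 response element is built of a pair of copies of a 10-letter motif, the p53 decamer, which reads the same on both strands. Promoter windows of the RefSeq tables (build GRCm38.p6, 250 bases before to 50 bases after the annotated start) were searched for it because most of these genes moved together at 18 h. Of 32851 windows in the table, 8.36% held an exact decamer. All genes but Perp, Tnfrsf10b and Pmaip1 had windows, 10 in all for 7 genes, and 4 of these windows, 1 of Bax, 1 of Ei24 and 2 of Aen, held an exact decamer. A pair of decamers with 0 to 13 bases between them and at most 2 letters off in the pair stood in 4.09% of all windows and in the window of Bax. The windows of 4 genes are printed 5′ to 3′ on the strand of the gene, with the matches in capitals: Bax, Aen and Ei24 because they hold the decamer, and Phlda3 because its probe showed the largest furan against control difference among the members at both times. They lie at chr7:45466849-45467148 on the minus strand for Bax, chr7:78895677-78895976 on the plus strand for Aen, chr9:36797285-36797584 on the minus strand for Ei24 and chr1:135765835-135766134 on the plus strand for Phlda3.
Bax: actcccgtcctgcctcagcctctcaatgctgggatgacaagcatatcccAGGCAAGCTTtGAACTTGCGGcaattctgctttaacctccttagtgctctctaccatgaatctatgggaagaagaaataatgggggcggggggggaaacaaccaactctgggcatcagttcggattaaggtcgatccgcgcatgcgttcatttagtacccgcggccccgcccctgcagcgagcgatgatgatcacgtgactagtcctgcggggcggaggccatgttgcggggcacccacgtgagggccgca
Aen: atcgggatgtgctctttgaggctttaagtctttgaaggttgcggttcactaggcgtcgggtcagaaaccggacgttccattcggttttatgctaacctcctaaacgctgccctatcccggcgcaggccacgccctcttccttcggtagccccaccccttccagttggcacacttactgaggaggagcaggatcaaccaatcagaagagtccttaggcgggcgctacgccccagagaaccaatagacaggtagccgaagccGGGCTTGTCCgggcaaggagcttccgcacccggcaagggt
Ei24: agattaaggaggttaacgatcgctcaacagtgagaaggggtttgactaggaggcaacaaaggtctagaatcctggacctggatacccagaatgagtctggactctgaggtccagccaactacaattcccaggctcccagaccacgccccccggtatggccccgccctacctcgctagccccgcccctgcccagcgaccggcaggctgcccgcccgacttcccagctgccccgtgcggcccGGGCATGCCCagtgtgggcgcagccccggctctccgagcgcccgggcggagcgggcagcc
Phlda3: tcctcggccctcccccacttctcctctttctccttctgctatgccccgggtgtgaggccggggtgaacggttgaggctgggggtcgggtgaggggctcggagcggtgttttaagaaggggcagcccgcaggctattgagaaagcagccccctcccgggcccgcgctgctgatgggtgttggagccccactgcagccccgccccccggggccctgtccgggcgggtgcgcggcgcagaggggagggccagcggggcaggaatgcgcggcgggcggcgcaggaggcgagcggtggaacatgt
The pair of decamers of Bax begins 201 bases before the start with 1 base between its copies, and the capitals mark 1 of 2 overlapping readings of that stretch. Distances are counted from the annotated gene start, which lies 250 bases into each window. The printed decamer of Aen begins 10 bases after its annotated start, and it is also 121 bases before the annotated start of the second Aen window, which overlaps the first. The decamer of Ei24 begins 10 bases before its start. The windows of Phlda3, Bbc3, Fas and Eda2r hold no exact decamer, which says only that these letters are not in these windows. A match describes the sequence and is no evidence that p53 binds there. At 18 h Bax and Aen were called higher with furan and Ei24 lower, as given below.

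Across the series the RNA was degraded, with integrity numbers of 1.3 to 2.4 per the labels. Probes well above background made up 38.2% ± 2.39 in furan livers (SD, n = 4) and 34.3% ± 1.77 in control livers (n = 3) at 3 weeks, an exact two-sided permutation p of 0.0571. At 18 h it was 53.7% ± 1.49 in furan livers and 47.3% ± 3.19 in control livers (n = 4 each), with an exact permutation p of 0.0286. That is the smallest two-sided p that 4 against 4 samples allow. Every furan sample lay above every control sample of its own time in this share, at 3 weeks as at 18 h. At 3 weeks this rests on the average of arrays 2.1 and 2.2. Array 2.1 alone had 36.78%, above furan sample 41 with 35.94%, and control sample 4 had 35.81%. The permutation test took no account of the slide. The lowest correlation of log ratios between any 2 arrays was -0.253 over all probes and -0.334 over the tested probes. Within a group it ran from 0.79 to 0.92 over the tested probes, the highest being that of arrays 2.1 and 2.2. Between control arrays of the 2 times it ran from -0.32 to -0.16. Of 14 hepatocyte marker probes, 13 or 14 were above background on every array of each group. Their summed processed Cy5 signal was 594156 to 698063 in furan livers and 505176 to 590225 in control livers at 3 weeks, against 457373 to 506690 in furan livers and 718577 to 830123 in control livers at 18 h. At 18 h, 9 of the 14 hepatocyte probes were called lower with furan and 2 higher. Erythroid markers also moved at 18 h, with 4 of 6 tested probes called lower and none higher, and a summed signal of 6379 to 9006 in furan livers against 11671 to 19983 in control livers. Of 10 macrophage probes, 4 were called lower and none higher at 18 h, with sums of 15183 to 17880 in furan livers and 15712 to 31925 in control livers. Endothelial and stellate markers each had 2 of 7 probes called higher and 3 lower at 18 h. At 3 weeks no probe of these 5 lists was called. Of the 7 cholangiocyte probes, those of Krt19 and Cldn4 were on no array above background, and among lymphocyte markers the same held for Cd8a and Ms4a1. The arrays are bulk measurements, so fewer cells of a type and less RNA per cell cannot be told apart, and the part of cell makeup in the results below was not tested.

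Furan raised most of these genes after 18 h in formalin, and after 3 weeks Phlda3 and Aen passed the test, neither of them in every fit that left out 1 sample. At 18 h, 7 probes of 6 genes were called higher, namely Phlda3, both Aen probes, Bax, Bbc3, Tnfrsf10b and Fas. Ei24 was called lower, and Perp and Pmaip1 were not called. A call here means an adjusted p under 0.05 in limma, with Benjamini-Hochberg adjustment over all tested probes. Over all tested probes 47.2% were called at 18 h, 20.4% higher and 26.8% lower. The median log2 difference was 0.89 over the 10 member probes and -0.054 over all tested probes. At 3 weeks 3 member probes were called higher and none lower, where 0.118% of all tested probes were called and 0.0875% were called higher. The median log2 difference over the 10 member probes was 0.20 at that time, against -0.000705 over all tested probes. The members and the gene lists used below were chosen with earlier results of these data known. Their contrasts with all tested probes therefore describe them and are no independent support. Groups that did not overlap numbered 7 of 10 member probes at 18 h, all higher with furan, where 39.2% of all tested probes did not overlap and 17.9% did so upward. At 3 weeks they numbered 5 of 10, with 4 higher (Phlda3, both Aen probes and Tnfrsf10b) and Perp lower, where 13.4% of all tested probes did not overlap and 7.53% did so upward.

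**Figure D1:**
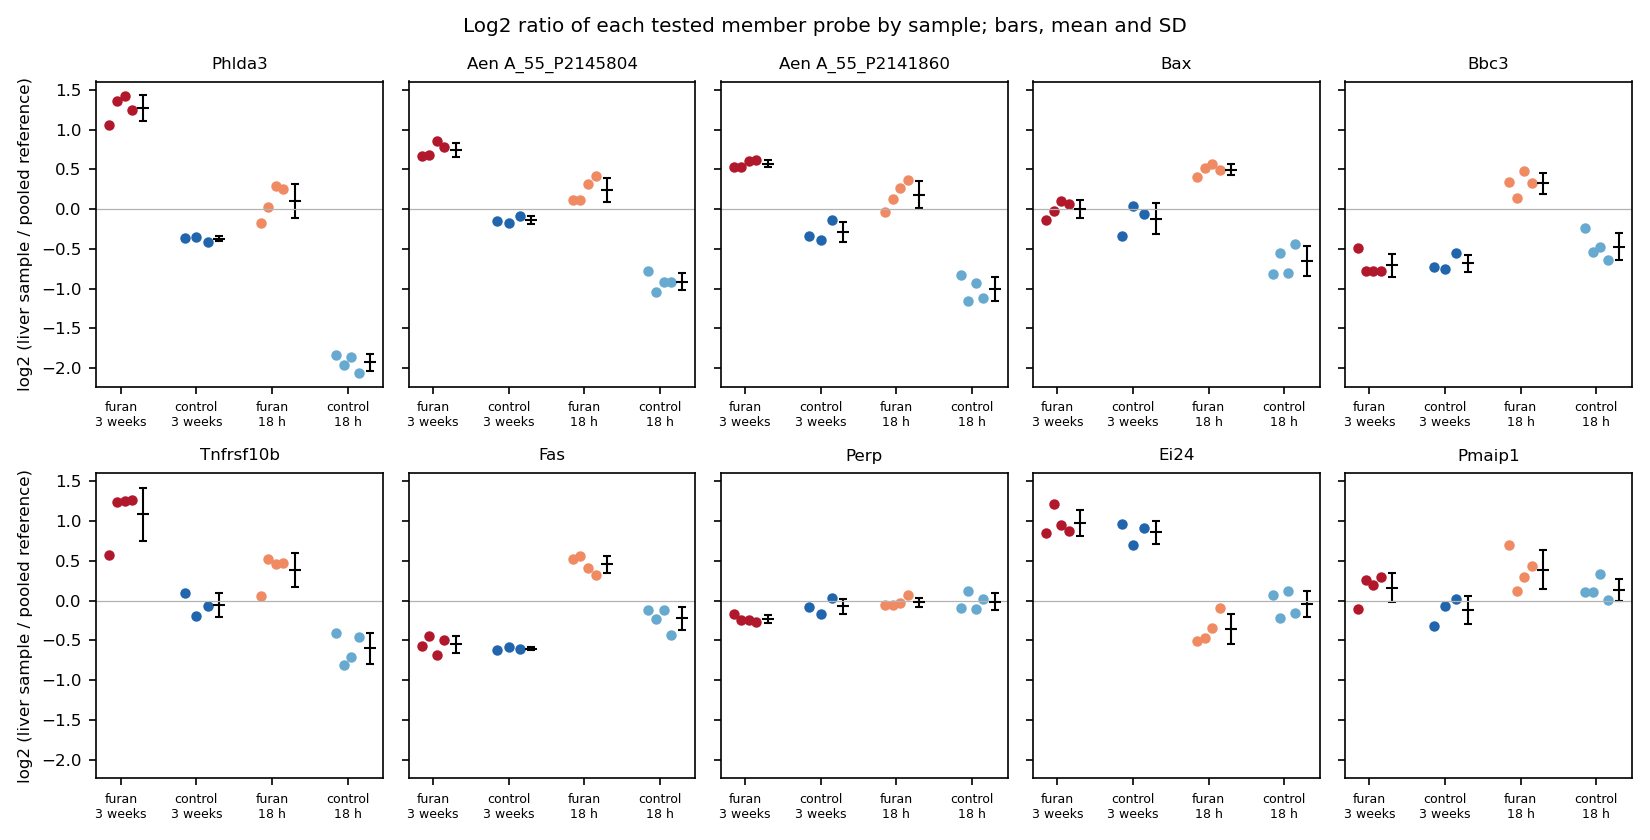
Log2 ratio of liver sample over pooled reference (vertical axis) for each tested member probe in furan and control livers at 3 weeks and at 18 h. Points are samples, the 3-week control arrays 2.1 and 2.2 being 1 point, and bars give the mean and SD. Phlda3, Aen and Tnfrsf10b lie apart between furan and control livers at both times, and Bax, Bbc3 and Fas at 18 h.

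Phlda3 encodes a small protein with a pleckstrin homology domain that competes with Akt for membrane lipids and so holds Akt back. Its log2 ratio was 1.05, 1.36, 1.42 and 1.24 in the 4 furan livers at 3 weeks, against -0.41, -0.36 and -0.35 in the 3 control livers. At 18 h it was -0.18, 0.030, 0.285 and 0.25 in furan livers, against -1.84, -1.96, -1.86 and -2.06 in control livers. Every furan liver lay above every control liver of its own time. The log2 difference was 1.64 ± 0.14 (SE), or 3.12-fold, at 3 weeks (adjusted p = 0.00355) and 2.02 ± 0.11, or 4.07-fold, at 18 h (adjusted p = 3.98e-06). The difference between these effects, 3 weeks minus 18 h, was -0.38 and was not called (adjusted p = 0.132, 95% interval -0.73 to -0.039). By group mean the order was furan at 3 weeks (1.27 ± 0.16, SD), furan at 18 h (0.096 ± 0.21), control at 3 weeks (-0.375 ± 0.031) and control at 18 h (-1.93 ± 0.10), and no 2 of these groups overlapped. The 3-week call was lost without control sample 6 (adjusted p = 0.0548) and kept when any other single sample was left out.

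Aen encodes a nuclear exonuclease that enhances apoptosis, and its 2 probes gave nearly the same picture. For probe A_55_P2145804 the log2 ratio was 0.67, 0.68, 0.85 and 0.78 in furan livers at 3 weeks, against -0.083, -0.15 and -0.18 in control livers. At 18 h that probe read 0.11, 0.11, 0.31 and 0.42 in furan livers, against -0.78, -1.04, -0.91 and -0.92 in control livers. For A_55_P2141860 the ratio ran between 0.53 and 0.61 in furan livers and between -0.39 and -0.14 in control livers at 3 weeks, and between -0.034 and 0.36 in furan livers and between -1.15 and -0.83 in control livers at 18 h. Neither probe had a furan liver below a control liver of the same time. The log2 differences were 0.88 ± 0.13 and 0.86 ± 0.13 (SE) at 3 weeks (adjusted p = 0.0419 and 0.0486) and 1.15 ± 0.084 and 1.19 ± 0.10 at 18 h (adjusted p = 1.11e-05 and 2.07e-05). The difference between the times was -0.27 and -0.33 and was not called (adjusted p = 0.192 and 0.173). The probes differed by -0.022 to 0.25 on the log2 scale over the 15 samples. Both 3-week calls lay close to the threshold: they held without control sample 4 (adjusted p = 0.0234 and 0.0302) and were lost when any 1 of the other 6 samples was left out, with adjusted p between 0.108 and 0.294 for A_55_P2145804 and between 0.113 and 0.308 for the other.

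Bax and Bbc3 act at the mitochondrion. Bax forms pores in the outer membrane, and Bbc3, also called Puma, is a BH3-only protein that frees or activates such pore formers. For Bax the log2 ratio was -0.14, -0.021, 0.11 and 0.061 in furan livers at 3 weeks, against -0.068, -0.34 and 0.037 in control livers. It was 0.40, 0.52, 0.56 and 0.49 in furan livers at 18 h, against -0.82, -0.56, -0.81 and -0.44 in control livers. The groups overlapped at 3 weeks and lay apart at 18 h. The log2 difference was 0.12 at 3 weeks (adjusted p = 0.729, 95% interval -0.16 to 0.41) and 1.15 ± 0.10 (SE) at 18 h, 2.22-fold (adjusted p = 2.63e-05).

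For Bbc3 the log2 ratio was -0.49, -0.77, -0.78 and -0.78 in furan livers at 3 weeks, against -0.56, -0.73 and -0.75 in control livers. At 18 h the same probe read 0.34, 0.14, 0.48 and 0.33 in furan livers, against -0.23, -0.54, -0.48 and -0.64 in control livers. As for Bax, the groups overlapped at 3 weeks and did not at 18 h. The log2 difference was -0.027 at 3 weeks (adjusted p = 0.958, 95% interval -0.33 to 0.28) and 0.80 ± 0.10 (SE) at 18 h, 1.74-fold (adjusted p = 0.000189).

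Pmaip1, also called Noxa, is a further BH3-only protein. Its probe was well above background on all 4 furan arrays at 18 h and on no array of the other 3 groups. It thus entered the tests through the 18 h furan group alone, and its 18 h comparison is not independent of that filter. Its processed Cy5 signal was 84.1, 57.6, 88.8 and 79.0 on the furan arrays at 18 h, against 17.9, 38.1, 72.1 and 21.6 on the control arrays. The furan signals overlapped those of control sample 4. Mean normalized log2 Cy5 was 7.09 in furan and 6.70 in control livers at 18 h, but the control mean is not well above background. The log2 ratio differed by 0.25 at 18 h (95% interval -0.023 to 0.52), which was not called (adjusted p = 0.119) except without furan sample 42 (adjusted p = 0.0156). At 3 weeks both groups were not well above background, so no fold is given (adjusted p = 0.422).

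The death receptors Tnfrsf10b, the mouse receptor for the ligand TRAIL, and Fas, the receptor for Fas ligand, were both called higher with furan at 18 h, and neither was called at 3 weeks. For Tnfrsf10b the log2 ratio was 0.58, 1.25, 1.25 and 1.26 in furan livers at 3 weeks, against -0.066, 0.10 and -0.19 in control livers. At 18 h Tnfrsf10b read 0.059, 0.52, 0.46 and 0.47 in furan livers, against -0.41, -0.81, -0.71 and -0.45 in control livers. Furan livers lay above control livers at both times, and the furan liver numbered 41 was the lowest of its group at both. The log2 difference was 1.13 ± 0.19 (SE), 2.2-fold, at 3 weeks and 0.98 ± 0.11, 1.97-fold, at 18 h. The rise at 18 h was called (adjusted p = 6.40e-05). At 3 weeks the difference was not called (adjusted p = 0.0678, 95% interval 0.72 to 1.55), although it was called without furan sample 41 (adjusted p = 0.0276) and without control sample 4 (adjusted p = 0.0196). It was also called under 6 of 13 processing settings, namely no background subtraction (adjusted p = 0.0214), the authors' values (0.0231), no slide term (0.0435), slide 2 alone (0.0263), arrays 2.1 and 2.2 as separate samples (0.0204) and all 15 samples in one fit (0.0017). The difference between the times was 0.16 (adjusted p = 0.673, 95% interval -0.30 to 0.61). The probe was above background on all 4 furan arrays at each time, on 1 of 4 control arrays at 3 weeks and on 3 of 4 at 18 h. Agilent's own log ratios, which subtract the background with no offset, gave larger log2 differences of 1.70 at 3 weeks, not called (adjusted p = 0.238), and 2.1 at 18 h.

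For Fas the log2 ratio was -0.57, -0.44, -0.69 and -0.50 in furan livers at 3 weeks, against -0.61, -0.62 and -0.59 in control livers. In the 18 h livers it was 0.52, 0.56, 0.41 and 0.32 with furan, against -0.12, -0.23, -0.12 and -0.43 without. The furan values enclosed the control values at 3 weeks and lay wholly above them at 18 h. The log2 difference was 0.056 at 3 weeks (adjusted p = 0.895, 95% interval -0.23 to 0.34) and 0.68 ± 0.092 (SE) at 18 h, 1.60-fold (adjusted p = 0.000227). Fas was above background on all arrays of the furan groups and of the 18 h controls, and on 2 of 4 control arrays at 3 weeks. Its 2 spots on an array differed by between -0.36 and 0.26 on the log2 scale.

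Eda2r encodes a receptor of the same superfamily for an ectodysplasin isoform. Neither of its probes could be tested. A_66_P122860 was above background on no array, with processed Cy5 signals between 10.4 and 25.6 over all 16 arrays. A_51_P161323 was above background on 1 furan array at 18 h, with signals of 38.7, 39.6, 115 and 65.3 on furan arrays and 25.7 to 37.8 on control arrays at 3 weeks, and of 33.4, 62.8, 33.5 and 38.0 on furan arrays and 14.1 to 19.2 on control arrays at 18 h. The furan and control signals of this probe did not overlap at either time, but all except 1 were not well above background. As log2 ratios over the pool they overlapped at both, with -0.27 to 0.31 in furan livers and -0.70 to -0.24 in control livers at 3 weeks, and -0.75 to -0.36 in furan livers and -0.79 to -0.53 in control livers at 18 h.

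**Figure D2:**
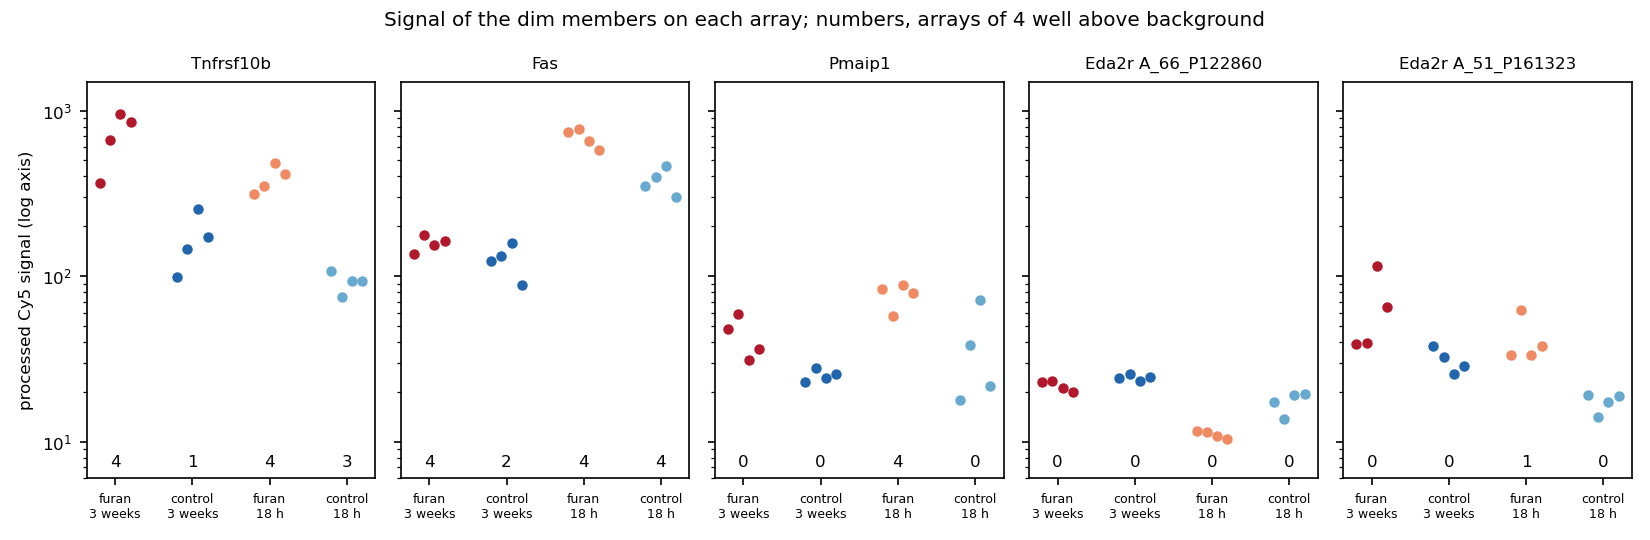
Processed Cy5 signal (log axis) of the 5 member probes with arrays not well above background, on each array of furan and control livers at 3 weeks and at 18 h. The number under each group is how many of its 4 arrays were well above background: for Pmaip1 these are the 4 furan arrays at 18 h, and for A_66_P122860 of Eda2r there is none.

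Perp, a membrane protein of desmosomes that takes part in apoptosis, and Ei24, a protein of the endoplasmic reticulum first found as an etoposide-induced transcript, did not follow the others. The log2 ratio of Perp ran between -0.27 and -0.17 in furan livers and between -0.16 and 0.028 in control livers at 3 weeks, and the groups nearly touched. At 18 h Perp ran between -0.057 and 0.064 in furan livers and between -0.10 and 0.12 in control livers. It was called at neither time, with log2 differences of -0.16 at 3 weeks (adjusted p = 0.631) and -0.0060 at 18 h (adjusted p = 0.961, 95% interval -0.20 to 0.19). For Ei24 the log2 ratio was 0.85, 1.21, 0.95 and 0.87 in furan livers at 3 weeks, against 0.91, 0.97 and 0.70 in control livers. At 18 h Ei24 read -0.51, -0.47, -0.34 and -0.092 in furan livers, against 0.074, -0.22, 0.12 and -0.15 in control livers. These groups overlapped at both times. The log2 difference was 0.12 at 3 weeks (adjusted p = 0.775) and -0.31 ± 0.11 (SE) at 18 h, where Ei24 was called lower (adjusted p = 0.0394). That call was lost without control sample 2 (adjusted p = 0.0816) or 4 (0.120) and without furan sample 41 (0.0936), 42 (0.0890) or 43 (0.0982).

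**Figure D3:**
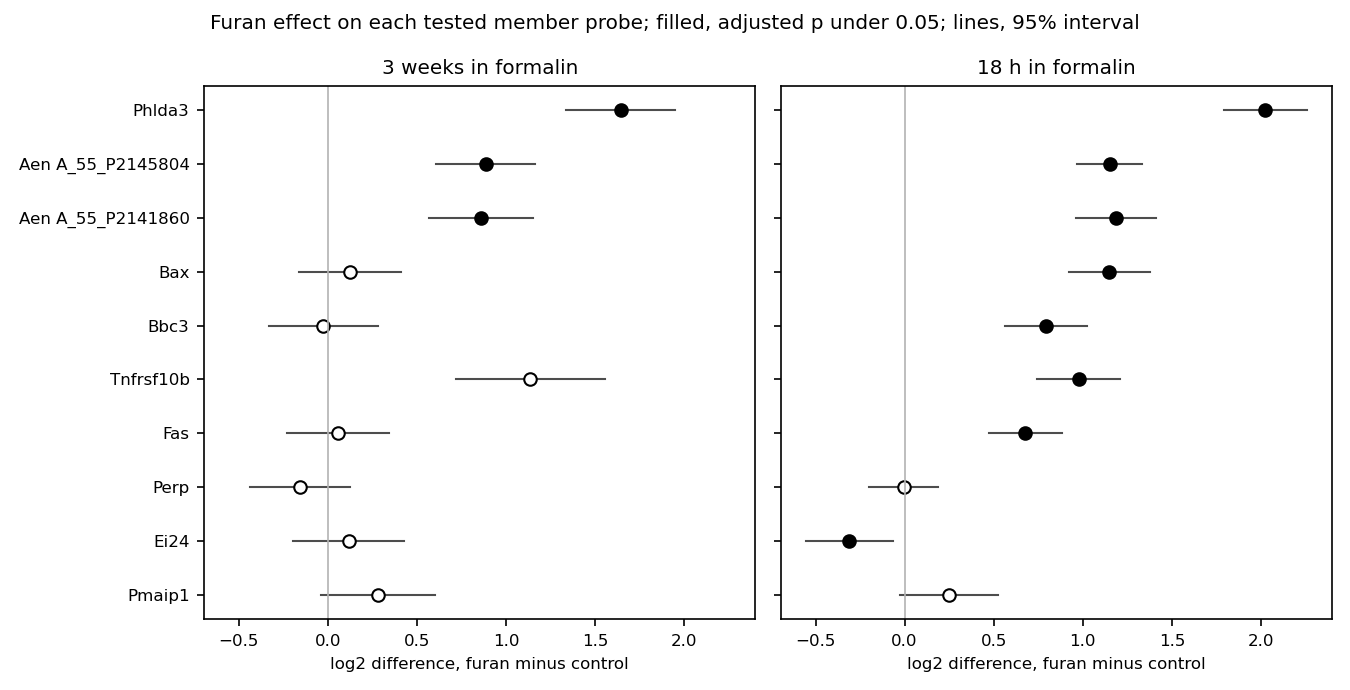
Log2 difference of furan minus control livers (horizontal axis) for each tested member probe at 3 weeks and at 18 h, with 95% intervals. Filled points have an adjusted p under 0.05: Phlda3 and both Aen probes at 3 weeks, and 8 probes at 18 h, of which only Ei24 lies below 0.

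The arrays of every group were split evenly over 2 slides, and the called rises were present on both. At 3 weeks control array 2.1 lay on slide 1 and array 2.2 on slide 2. They were read above as 1 sample, so the 3-week values of the 2 slides are not independent. The log2 difference at 3 weeks on slides 1 and 2 was 1.62 and 1.68 for Phlda3. It was 0.82 and 0.92 for Aen probe A_55_P2145804 and 0.81 and 0.83 for A_55_P2141860. Tnfrsf10b, which was not called at 3 weeks, gave 0.98 and 1.29. At 18 h it was 1.84 and 2.21 for Phlda3, 1.14 and 1.16 for Bax, 0.75 and 0.84 for Bbc3, 1.05 and 0.90 for Tnfrsf10b, 0.71 and 0.64 for Fas and -0.44 and -0.18 for Ei24. The Aen probes gave 1.09 and 1.21 for A_55_P2145804 and 1.08 and 1.29 for A_55_P2141860 at 18 h.

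The furan effect itself differed between the times for Bax, Bbc3 and Fas, and was not called for the other member probes. In one fit over all 15 samples the difference, 3 weeks minus 18 h, was -1.03 ± 0.16 (SE) for Bax (adjusted p = 0.00127), -0.82 ± 0.17 for Bbc3 (adjusted p = 0.00604) and -0.62 ± 0.14 for Fas (adjusted p = 0.0103). Over all tested probes 12.7% were called in this comparison, 7.82% higher and 4.93% lower. The other 7 member probes were not called, with differences from -0.38 for Phlda3 to 0.43 for Ei24 (adjusted p = 0.140). Their 95% intervals ran from -0.73 to -0.039 for Phlda3 and from 0.035 to 0.82 for Ei24, so a p above the threshold does not show that these effects were alike. All 3 calls held when each sample was left out in turn. With Agilent's log ratios the Fas difference was -0.59 and was not called (adjusted p = 0.0977).

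The same probes can be read along the time in formalin, which in these data changed together with the number of sections. In furan livers 5 member probes were called higher at 3 weeks than at 18 h and 4 lower, where 67.1% of all tested probes were called, 35.1% higher and 32% lower. In control livers 6 were called higher and 1 lower, where 59.3% of all tested probes were called, 28.5% higher and 30.8% lower. Most tested probes were thus called with this time. In furan livers the groups of all member probes but Pmaip1 did not overlap, 9 of 10, where 57.7% of all tested probes did not and 29.8% lay apart upward. In control livers the groups of 7 of 10 did not overlap, all but Bbc3, Perp and Pmaip1, where 58.6% of all tested probes did not and 28.6% lay apart upward. Phlda3 was higher at 3 weeks by 1.17 in furan livers and by 1.55 in control livers on the log2 scale. Ei24 was higher by 1.33 and 0.90 in furan and control livers, the Aen probes by 0.51 and 0.39 in furan livers and by 0.77 and 0.72 in control livers, and Tnfrsf10b by 0.70 in furan livers and 0.54 in control livers. Without control sample 4 at 3 weeks the Tnfrsf10b difference in control livers was 0.40 and was not called (adjusted p = 0.0563). Fas fell by 1.00 in furan livers and by 0.38 in control livers. Bax was called in opposite directions, -0.49 in furan livers (adjusted p = 0.000651) and 0.53 in control livers (adjusted p = 0.000771). Bbc3 fell by 1.03 in furan livers (adjusted p = 7.87e-07), while its change of -0.21 in control livers was not called (adjusted p = 0.164). Perp fell by 0.21 in furan livers (adjusted p = 0.0483), a call that was lost when any 1 of the 8 furan samples was left out (adjusted p = 0.0519 to 0.137). Pmaip1 was called in neither. These comparisons share all their samples with the furan comparisons above.

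**Figure D4:**
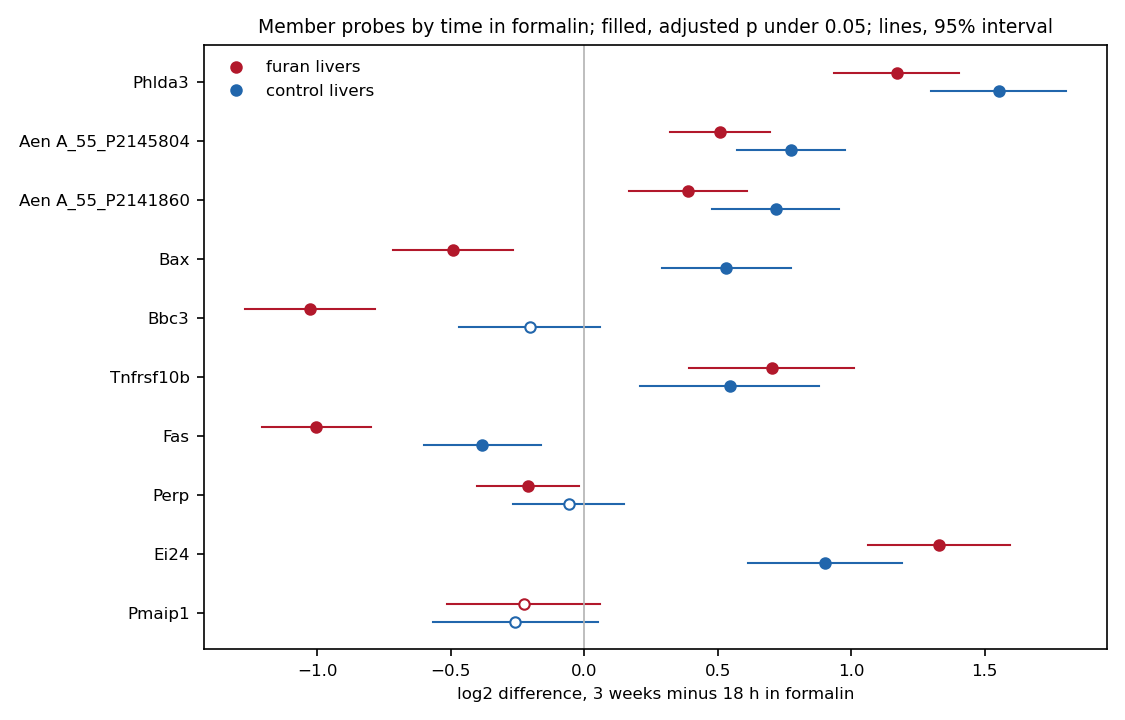
Log2 difference of 3 weeks minus 18 h in formalin (horizontal axis) for each tested member probe, in furan livers and in control livers, with 95% intervals and filled points for an adjusted p under 0.05. Bax lies on opposite sides of 0 in furan and control livers, and Phlda3, Aen, Tnfrsf10b and Ei24 lie above 0 in both.

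Phlda3 and Aen ran closely together. Over the 15 samples the Pearson r of Phlda3 with Aen probe A_55_P2145804 was 0.991, and Aen was the gene most like Phlda3 among all tested probes with a symbol. Genes that followed in likeness to Phlda3 were Tuba1c (r = 0.986), Brd2 (0.980) and Map7d1 (0.978), and those most like Aen were Phlda3, Tuba1c (0.976), Brd2 (0.973), Gm3776 (0.972) and Map7d1 (0.971). These values describe likeness over samples that share 1 reference pool and fall into 4 groups, so no p is given. The furan effects of these genes were, at 3 weeks and 18 h in turn, log2 differences of 0.88 and 0.88 for Tuba1c, 0.775 and 1.19 for Brd2, 0.425 and 0.64 for Map7d1, and 1.96 and 1.78 for Gm3776. Because the genes were picked for likeness over these same samples, furan effects like those of Phlda3 and Aen follow largely from that choice.

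Upstream of these genes, the p53 transcript itself was not called with furan. Trp53 differed by 0.15 at 3 weeks (adjusted p = 0.760) and by -0.11 at 18 h (adjusted p = 0.264) on the log2 scale. Mdm2, a p53 target that encodes the ligase removing p53, was higher with furan at 18 h by 0.85 (adjusted p = 4.05e-05) and differed by 0.19 at 3 weeks (adjusted p = 0.572). Among 14 tested probes of p53 and its regulators, 6 were called higher and 3 lower at 18 h, with a median of 0.24. At that time 20.4% of all tested probes were called higher and 26.8% lower. None of the 14 were called at 3 weeks, where 0.118% of all tested probes were called. The 3 called lower at 18 h were Mdm4, Trp63 and Chek1, which are named because the count is small and were chosen after their values were seen.

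Among 23 tested probes of other p53 targets, 13 were called higher and 3 lower (Ddb2, Ccnd1 and Xpc, chosen after their values were seen) at 18 h, with a median log2 difference of 0.49. Of all tested probes, 20.4% were called higher and 26.8% lower at that time. At 3 weeks 1 of the 23 was called, where 0.118% of all tested probes were. It was Gdf15, also chosen after its value was seen, with 1.35 (adjusted p = 0.0252) at 3 weeks and 1.11 at 18 h. Cdkn1a, the cell cycle inhibitor p21, has 2 tested probes that differ. A_51_P363947 was higher with furan at 18 h by 1.89 (adjusted p = 3.98e-06), and at 3 weeks it was not called (adjusted p = 0.0723). Its log2 difference at 3 weeks was 0.78, with a 95% interval of 0.48 to 1.09, and it was called there under 4 of 13 processing settings. No control array was well above background at 3 weeks. Measured means were 8.01 in furan and 7.26 in control livers on the normalized log2 Cy5 scale. A bound was also taken with each control value raised, where lower, to the lowest value among probes well above background on its array. It came to 1.68-fold higher with furan, which is the fold of the measured means themselves, so it sets no lower limit. That fold takes no account of the spread between samples, so the true fold could be smaller. With no dye swap it is open to dye bias. The other probe, A_55_P1986282, differed by -0.49 at 3 weeks and by 0.021 at 18 h and was called at neither.

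Among the partners of these genes, calls went in both directions at 18 h, where 20.4% of all tested probes were called higher and 26.8% lower. Of 14 BCL-2 family probes, 3 were called higher and 3 lower at 18 h, with a median of 0.000231. Bak1, a pore former like Bax, was higher by 0.59 (adjusted p = 0.00112), while the survival genes Bcl2, with -0.089, and Mcl1, with -0.034 and 0.19 on its 2 probes, were not called. The 2 probes of the survival gene Bcl2l1 were called in opposite directions, -0.61 and 0.42. Of 22 probes of caspases and apoptosome genes, 7 were called higher and 6 lower at 18 h. Casp8, the initiator that death receptors recruit, fell by 0.55 (adjusted p = 0.00268), and Casp9 differed by 0.24 and was not called (adjusted p = 0.0535). Casp9 was called higher under 5 of 13 processing settings and without control sample 6 (adjusted p = 0.0222). Of 15 probes of death receptor ligands, further receptors and adaptors, 2 were called higher and 5 lower at 18 h. Fadd, the adaptor that links Fas to Casp8, fell by 0.50 (adjusted p = 0.00154), and Tnfsf10, the ligand of Tnfrsf10b, differed by -0.10 (adjusted p = 0.436). None of the probes of these 3 lists was called at 3 weeks, where 0.118% of all tested probes were. Bcl2l11, Apaf1 and Fasl were too dim to test.

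On the Akt side, 12 of 43 tested probes of the PI3K and Akt pathway were called higher and 6 lower at 18 h, with a median log2 difference of 0.060. Over all tested probes 47.2% were called at that time, 20.4% higher and 26.8% lower. Higher calls outnumbered lower calls in this list, and the reverse held over all tested probes. The 43 probes belong to 29 genes, so some genes count more than 1 time, and this contrast in direction was not tested. None of the 43 were called at 3 weeks, where 0.118% of all tested probes were. Akt1 differed by 0.19 at 18 h and was not called (adjusted p = 0.0709), except under 2 of 13 processing settings. The 3 Akt2 probes gave -0.077, 0.0076 and 0.060, none of them called. Of 2 probes of Foxo1, a transcription factor that Akt keeps out of the nucleus, A_51_P138044 fell by 1.22 (adjusted p = 6.32e-05) and A_52_P453884 differed by -0.0019. Foxo3 differed by -0.22 and was not called (adjusted p = 0.112), except without furan sample 41 (adjusted p = 0.0394). The arrays measure RNA, and Akt activity was not measured.

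**Figure D5:**
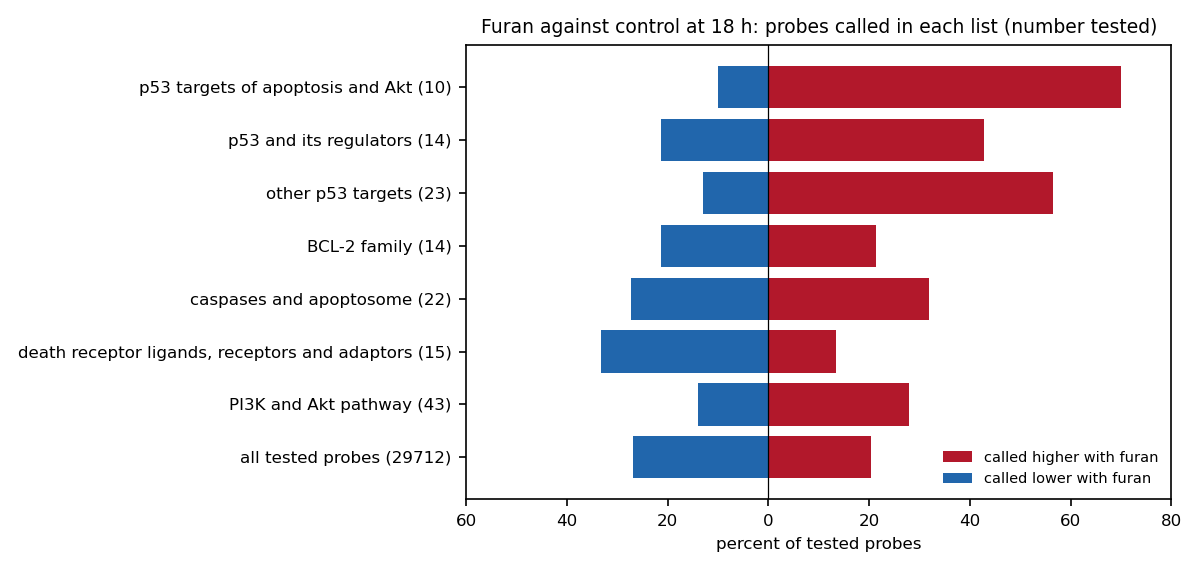
Percent of tested probes called higher (right) or lower (left) with furan at 18 h, for the member genes, 6 further gene lists and all 29712 tested probes. The number of tested probes stands after each name. Of the member probes 7 of 10 were called higher and 1 lower, and of the death receptor list 2 of 15 were called higher and 5 lower.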

How the data were processed

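The authors hybridised Cy5-labelled liver cDNA against a Cy3-labelled pool of all samples on Agilent SurePrint G3 mouse arrays, with no dye swap, per the labels. Per the file headers, Agilent Feature Extraction 11.0.1.1 produced the scanner files, which name mouse build mm9. The deposited scanner files hold un-normalized intensity (median signals of spot and local background), processed intensity after Agilent's background subtraction and dye normalization, and a log10 ratio of Cy5 over Cy3. The authors' deposited table gives a log2 ratio, sample over pool, for each probe. Its scale and direction were settled from its correlation of 0.918 to 0.991 with log ratios of the scanner files (slopes 0.729 to 0.858), and its normalization and centring are not given in the sources used here. Its column medians were -0.00715, -0.00825, -0.00445 and -0.00133 (furan samples 41, 42, 43 and 44, 3 weeks), -0.00872, -0.00919, -0.00159 and -0.00869 (controls 2.1, 2.2, 4 and 6, 3 weeks), 0.0247, 0.0204, 0.0163 and 0.0187 (furan samples 41, 42, 43 and 44, 18 h) and 0.000797, 0.0033, -0.0051 and 0.00438 (controls 2, 3, 4 and 6, 18 h).

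Each array had 62976 spots, 59305 of them outside the control set, from 55681 probes, of which 27235 matched a RefSeq symbol by accession. Median intensities were corrected by normexp (offset 50) and normalized by loess within arrays, 187 to 308 outlier spots per array were left out, and spots of a probe were averaged. R 4.3.3 with limma 3.58.1 (lmFit, eBayes) fitted every tested probe with the slide as a term, since the arrays lay on 2 slides with 2 arrays of each group. The furan effect at each time was fitted on that time's samples alone, and the remaining comparisons on all 15 samples. P-values were two-sided, adjusted by Benjamini-Hochberg over 29712 probes, and measure the spread between these samples only. The number of arrays limits the precision. The fits were tested on simulated data. Promoters and figures used Python 3.11.15, numpy 2.4.6 and matplotlib 3.10.9.

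Named genes were all members, 20 list genes whatever their values, and the 5 genes most like Phlda3 and Aen. Some of these are not reported here. The members and lists were chosen with earlier results of these data known. The alternatives covered background correction, Agilent's log ratios, the authors' values, the filter, the slide, the variance model, array weights, arrays 2.1 and 2.2 as separate samples, 1 probe per gene, a fold threshold of 1.5, all samples in one fit, pairing by number and leaving out each sample.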

Additional observations from a re-analysis of the deposited data

Results flagged for a closer look

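The furan sample numbered 41 stood apart from the other samples of its group for Tnfrsf10b at both times. Its log2 ratio was 0.577 at 3 weeks, where the other 3 furan samples read 1.25 to 1.26, and 0.0594 at 18 h, where they read 0.464 to 0.525. It also stood apart for Bbc3 at 3 weeks, with -0.487 against -0.783 to -0.773 in the others. For Perp at 18 h, furan sample 44 read 0.0643, where the other 3 furan samples read -0.0571 to -0.0365. These are 4 of 36 sets of 4 samples examined for a highest or lowest sample far from the rest, and chance marks about 1 in 20 such sets. The furan effect differed between the times, 3 weeks minus 18 h, by -1.03 for Bax, by -0.822 for Bbc3 and by -0.622 for Fas, each past the threshold in the test of that difference.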

How the results depend on the processing

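For the furan effect at each time and the difference between the times, member probes had 667 values under other settings. Of these, 619 kept their side of the threshold, 37 lost a call and 11 gained one. No called value changed sign, while 20 values that were called in neither fit did (Perp at 18 h, Bbc3 at 3 weeks, Tnfrsf10b and Pmaip1 for the difference between the times). These totals leave out the comparisons along the time in formalin. There Perp in furan livers kept its call under 7 of 11 processing settings and Fas in control livers under 10 of 11. Pmaip1 in furan livers gained a call under 1 of 11. The 7 probes called higher at 18 h kept that call under every setting in which they were fitted. With Agilent's log ratios, the authors' values, no filter, either slide alone or all samples in one fit, none was called lower at 18 h, against 7 called higher. The count of 3 at 3 weeks was the least stable: it was 0 with Agilent's log ratios, 0 on slide 1 alone, 1 with no filter on dim probes and 1 with trend and robust variances, and between 0 and 4 when each sample was left out. It was 0 without control 6, 1 without control 2 or furan sample 42, 43 or 44, 2 without furan sample 41 and 4 without control 4. Over all tested probes the number called at 3 weeks ran from 0 with Agilent's log ratios to 1298 with all samples in one fit. The difference between the times was called for 5 member probes with the authors' values, both Aen probes being added (adjusted p = 0.0386 and 0.0403). Requiring at least 1.5-fold left 5 calls for time in formalin in furan livers and 4 in control livers, of 10 member probes, where 42.8% and 38.7% of all tested probes were called. Leaving out each sample gave 7 to 8 calls at 18 h (40.7% to 43.9% of all tested probes), 3 for the difference (8.57% to 13.5%), 8 for time in furan livers (62.7% to 65.3%) and 6 to 7 in control livers (54.9% to 56.4%). Sample numbers shared between the times gave correlations of 0.0189 to 0.182 between same-numbered samples. The best match among the 4 samples of that treatment at 18 h was the own number for 5 of 7. Whether a shared number marks 1 animal was not tested further, and the main fits treated all samples as unpaired. With the number as a replicate block and no slide term, 3 member probes were called for the difference (9.08% of all tested probes), 8 for time in furan livers (66.5%) and 7 in control livers (54.2%). The causes of these changes were not tested. Weak signal over background limits Tnfrsf10b and Fas in 3-week controls, Pmaip1 and Eda2r.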
